A study of Homo sapiens with 9 samples.

Results

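The 10 miRNAs described here are known as markers of tissues other than T cells: hsa-miR-122-5p of liver, hsa-miR-451a and hsa-miR-486-5p of red cells, hsa-miR-141-3p, hsa-miR-200b-3p, hsa-miR-200c-3p and hsa-miR-203a-3p of epithelium, hsa-miR-126-3p of endothelium, and hsa-miR-143-3p and hsa-miR-145-5p of fibroblasts and smooth muscle. They were taken by name from the 2654 mature miRNAs in the count table, with no threshold on level. Earlier results of these data were known when they were chosen. The libraries hold small RNA of Jurkat (clone E6-1), a long-established T lymphoblast cell line of human origin and not a line of these tissues. Whether other cells were present was not tested. Control cells were not activated (0 h). The other cells were activated for 5 h or 12 h on plates coated with antibody to CD3 (10 µg/mL), with antibody to CD28 in the medium (5 µg/mL). Each time had 3 biological replicates, 9 libraries in all, and every group was 1 clonal line grown in medium with fetal bovine serum. Unactivated cells kept for 5 h or 12 h were not among the samples, so activation and time in culture cannot be told apart.

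A miRNA is cut from a hairpin precursor, and the mature strand guides Argonaute to messenger RNAs that pair with its seed, bases 2 to 8 from the 5′ end. Tissue markers of this kind are made in large amounts in a few lineages. miR-122 is the leading miRNA of hepatocytes and supports lipid metabolism there. The miR-200 family holds down ZEB1 and ZEB2, repressors of the epithelial state, and miR-203 restrains p63 in skin. miR-126 lies in the endothelial gene EGFL7 and favours signalling by vascular growth factors, while miR-143 and miR-145 share a transcript that is strong in smooth muscle. miR-451a and miR-486-5p build up in developing red cells, and miR-451a is matured by Argonaute 2 without Dicer.

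Mature sequences of 8 of the 10 miRNAs were found by name in the RefSeq table for GRCh38.p14. They are printed because the levels of close relatives in the miR-200 family are compared below, and because the seeds show which markers could share targets. Capitals mark the seed. miR-200a-3p and miR-429, relatives outside the set, are added for comparison.
hsa-miR-200c-3p: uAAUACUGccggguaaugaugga
hsa-miR-200b-3p: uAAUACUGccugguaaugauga
hsa-miR-429: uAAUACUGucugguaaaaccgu
hsa-miR-141-3p: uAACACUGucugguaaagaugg
hsa-miR-200a-3p: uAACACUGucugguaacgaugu
hsa-miR-203a-3p: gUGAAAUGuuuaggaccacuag
hsa-miR-126-3p: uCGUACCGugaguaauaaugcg
hsa-miR-143-3p: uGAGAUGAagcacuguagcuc
hsa-miR-145-5p: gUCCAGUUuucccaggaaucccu
hsa-miR-122-5p: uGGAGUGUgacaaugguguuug
miR-200b-3p and miR-200c-3p were the only members with a seed in common (AAUACUG, also that of miR-429). miR-141-3p had the seed of miR-200a-3p, AACACUG. Counted from the 5′ end, miR-200b-3p differs from miR-200c-3p by G11U and G22A and lacks its last base, and miR-200a-3p differs from miR-141-3p by A17C and G22U (the base of the first-printed member of each pair, miR-200c-3p or miR-141-3p, stands first).

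Positions are those of GENCODE 29 on GRCh38. The precursors of miR-200c (chr12:6963699-6963766) and miR-141 (chr12:6964097-6964191) lie together on the plus strand in an intron of the lincRNA MIR200CHG, and PHB2 is the nearest coding gene. miR-200b (chr1:1167104-1167198) lies between genes in another cluster, with miR-200a and miR-429. miR-203a (chr14:104117405-104117514) is intergenic, 1824 bp from ASPG. miR-126 (chr9:136670602-136670686) is in an intron of EGFL7. miR-143 (chr5:149428918-149429023) and miR-145 (chr5:149430646-149430733) lie in the lincRNA CARMN, the first overlapping an annotated exon and the second in an intron. miR-122 (chr18:58451074-58451158) overlaps an exon of MIR122HG, and miR-451a (chr17:28861369-28861440) an exon of the lincRNA AC024267.1. miR-486-5p has 2 precursors on opposite strands of the same stretch of chromosome 8, in an intron of ANK1. Its 2 count rows were the same except in replicate 3 of 0 h (8 and 2 counts, 1.22 and 0.305 CPM). They therefore hardly tell the 2 sources apart, and the row with the higher total is used below.

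Total counts ranged from 6631839 to 16207031 per library, with replicate 3 of 0 h and replicate 3 of 12 h the shallowest and replicate 3 of 5 h the deepest. Levels are given as counts per 1000000 (CPM) after TMM scaling, and 3 counts correspond to between 0.176 and 0.471 CPM, depending on the library. Such floors, and the binomial intervals below, take in the error of counting alone, because the reads carry no molecular identifiers and may repeat a molecule. The 4 blood cell markers used to check the cell label all had counts in every library, and miR-181a-5p averaged 29562 CPM and miR-142-3p 9203 CPM over the 9 libraries. In bulk RNA, a few cells with much of a miRNA and many cells with little of it cannot be told apart.

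All 10 tissue markers had counts, at levels from 0.651 to 103 CPM on average. Their order was miR-200c-3p, miR-141-3p, miR-203a-3p, miR-126-3p, miR-122-5p, miR-143-3p, miR-451a, miR-486-5p, miR-145-5p and miR-200b-3p. Without replicate 3 of 5 h, miR-122-5p averaged 3.78 CPM, below the 9-library means of miR-143-3p (7.04 CPM) and miR-451a (5.69 CPM). By mean level miR-200c-3p had rank 119 and miR-200b-3p rank 595 among the 1098 mature miRNAs with any count. The most abundant marker, miR-200c-3p at 103 CPM, stood just below the least abundant of 6 miRNAs taken as references for level, the myeloid miR-223-3p at 134 CPM. miR-142-3p was 89.4 times as abundant as miR-200c-3p. Neighbours in this order overlapped over the libraries, and so are not ordered beyond their spread, except that every library of miR-141-3p lay above every library of miR-203a-3p, and every library of miR-203a-3p above every library of miR-126-3p. The mature forms printed are 21 to 23 bases long.

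**Figure D1:**
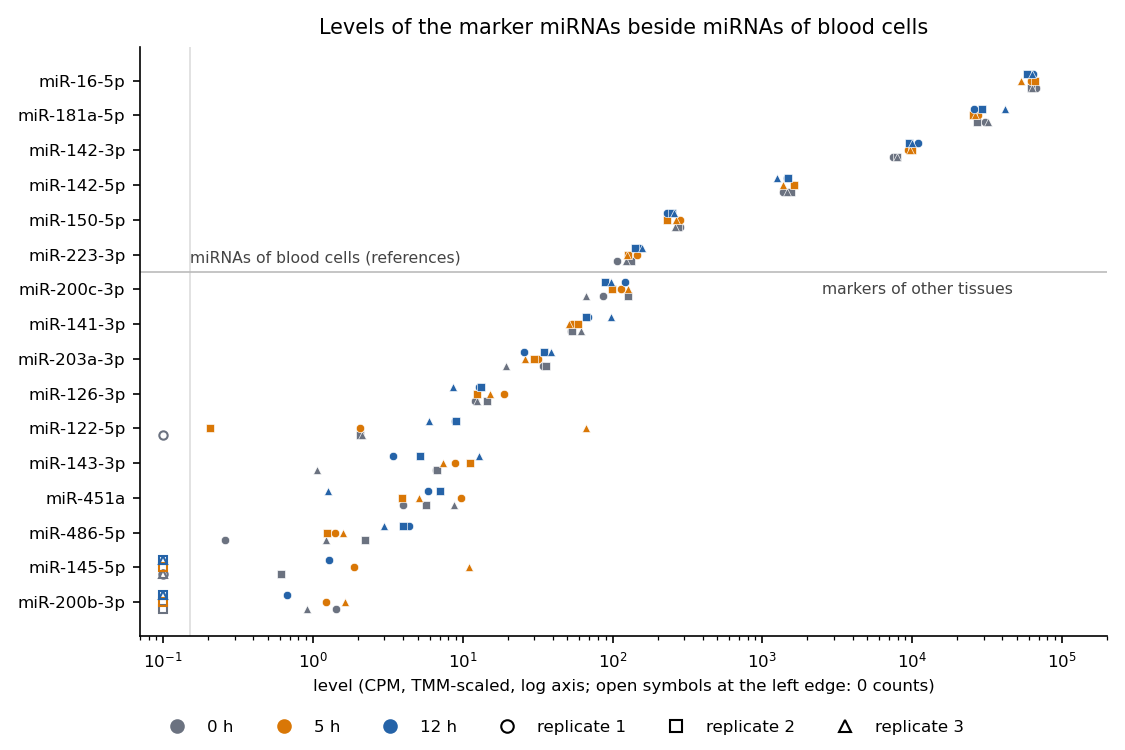
Level of each marker miRNA and of 6 reference miRNAs in every library (CPM on a log axis, colour for time and symbol for replicate, open symbols for 0 counts). The markers run from miR-200c-3p, at 66.3 to 127 CPM, down to miR-200b-3p, with 0 counts in 4 libraries, while miR-181a-5p and miR-16-5p average 29562 and 62179 CPM.

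Summed over the 10 markers, the level was 207 ± 38.1 CPM in the controls, 257 ± 49.5 after 5 h and 249 ± 18.7 after 12 h (SD, n = 3). The lowest library was replicate 3 of 0 h at 174 CPM and the highest replicate 3 of 5 h at 313 CPM. With each mature miRNA counted once, the 10 together made up 0.0254% to 0.0510% of the counts of a library. miR-200c-3p, miR-141-3p and miR-203a-3p supplied 82.6% of the summed level.

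The first question was how evenly each marker was spread over the libraries. In all, 7 of the 10 had counts in every library (70.0%, against 60.2% of the 626 mature miRNAs tested), and these same 7 had at least 3 counts in each. The exceptions were miR-122-5p, miR-145-5p and miR-200b-3p. The median coefficient of variation (CV, the SD as a percent of the mean over the 9 libraries) was 48.7% for the markers and 52.1% for all tested mature miRNAs, so as a list the markers were about as even as the rest. The single markers differed widely: 4 had a CV of 19.9% to 22.9%, 3 of 45.3% to 64.5% and 3 of 104% to 218%. Since CV falls with level, the markers were also set beside miRNAs of like level. Between 10 and 200 CPM the median CV was 20.4% for the 5 markers and 24.6% for all 146 mature miRNAs. miR-122-5p is in this range only through replicate 3 of 5 h, since its mean over the other 8 libraries was 3.78 CPM. Below 10 CPM it was 64.5% for the other 5 markers and 83.8% for all 381.

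**Figure D2:**
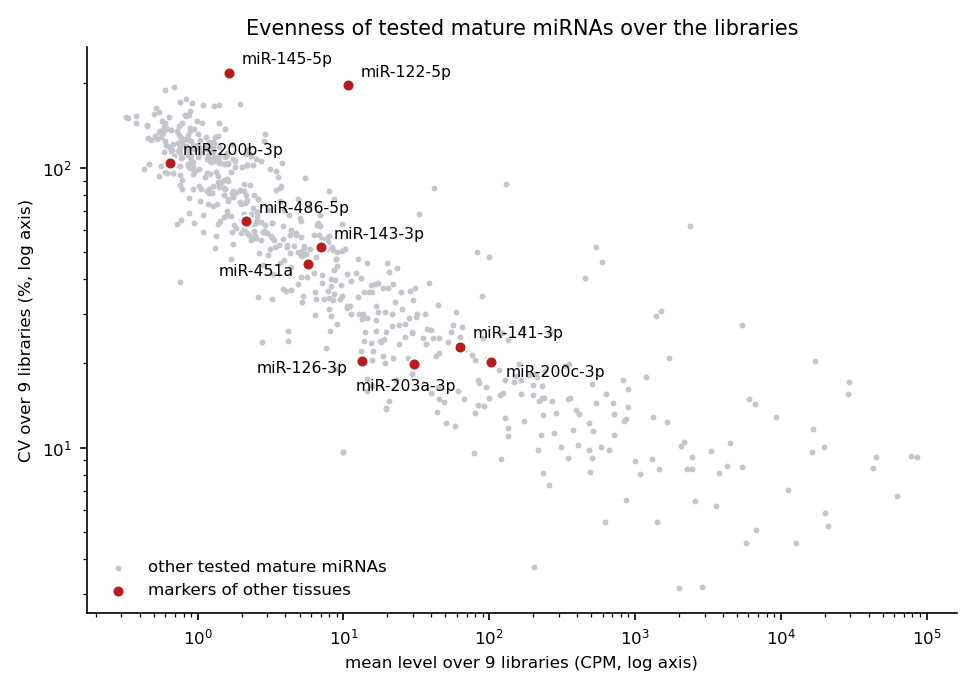
CV over the 9 libraries against mean level for 626 tested mature miRNAs (both axes log), with the 10 markers in red. miR-200c-3p, miR-141-3p, miR-203a-3p and miR-126-3p lie at 19.9% to 22.9%, within the cloud at their level, while miR-122-5p (197%) and miR-145-5p (218%) lie above it, each with a mean and a CV raised by the same library.

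Among the epithelial markers, miR-200c-3p had 86.7, 127 and 66.3 CPM in replicates 1, 2 and 3 of 0 h, 114, 98.9 and 126.5 at 5 h, and 121.7, 88.8 and 97.3 at 12 h. No time stood apart, and the highest and lowest libraries were both controls. Its CV of 20.2% was far above the 2.85% that counting alone gives at this depth, and near the 23.4% (biological coefficient of variation) that edgeR's trend over all tested rows gives at this level. Between 5 h and 0 h the fitted fold was 1.21 (95% interval 0.876 to 1.67; log2 change 0.28, SE 0.22, n = 3, edgeR adjusted p = 0.996). The log2 change was 0.08 without the lowest control, replicate 3, and 0.53 without the highest, replicate 2 (edgeR adjusted p = 0.418).

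miR-141-3p, encoded beside miR-200c, had 52.8, 54.0 and 61.5 CPM in the controls, 53.5, 59.1 and 51.3 after 5 h and 68.3, 66.2 and 97.5 after 12 h. All 3 libraries at 12 h lay above all 6 others, with replicate 3, the shallowest library, highest. The fold was 1.38 between 12 h and 0 h (95% interval 1.02 to 1.87; log2 change 0.46, SE 0.21, n = 3, edgeR adjusted p = 0.661). It was 1.41 between 12 h and 5 h (interval 1.04 to 1.92; edgeR adjusted p = 0.720). Neither passed the threshold of 0.05 over 701 tested rows. Without replicate 3 of 12 h the log2 change against 0 h was 0.23 and that against 5 h was 0.29.

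The ratio of miR-200c-3p to miR-141-3p counts ranged from 0.998 to 2.46 over the libraries, although both come from 1 cluster. It was 1.64, 2.35 and 1.08 in the controls, 2.13, 1.67 and 2.46 after 5 h and 1.78, 1.34 and 0.998 after 12 h. The spread within each time was as wide as the difference between times. On the log2 scale the means were 0.69 in the controls, 1.04 after 5 h and 0.42 after 12 h, and none of the 3 comparisons passed an exact two-sided permutation test (exact p = 0.4 for 5 h against 0 h, 0.6 for 12 h against 0 h and 0.2 for 12 h against 5 h, each 0.6 after Benjamini-Hochberg adjustment). With 3 libraries a group, the exact test cannot go below p = 0.1.

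miR-203a-3p, a miRNA of differentiating skin, had 34.5, 35.7 and 19.3 CPM in the controls, 31.9, 29.8 and 26.1 after 5 h and 25.5, 34.8 and 38.8 after 12 h. The groups overlapped, and the library lowest for this miRNA was replicate 3 of 0 h, as for miR-200c-3p. Between 12 h and 0 h the fold was 1.10 (95% interval 0.729 to 1.67; log2 change 0.14, edgeR adjusted p = 0.991). Leaving out replicate 3 of 0 h turned the log2 change to -0.083, leaving out replicate 3 of 12 h to -0.01, and leaving out both of these shallowest libraries to -0.23.

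miR-200b-3p, with the same seed as miR-200c-3p, was close to the limit of counting. Its counts were 22, 0 and 6 in the controls, 13, 0 and 28 after 5 h and 9, 0 and 0 after 12 h. Replicate 2 had 0 counts at every time, and the total was 78 counts against 11084 for miR-200c-3p, a ratio of 142.1. The chromosome 1 partners were as low, with 8 counts of miR-200a-3p and 21 of miR-429 over the 9 libraries and 0 of miR-200a-5p. miR-141-3p exceeded miR-200a-3p, from which it differs by 2 bases, by a ratio of 784. The chromosome 12 cluster was thus counted in all 9 libraries and the chromosome 1 cluster barely, while a further epithelial miRNA, miR-205-5p, was at 0 in all 9. Of 7 epithelial markers 6 had counts, and their summed level was 149 to 216.8 CPM in the controls, 188 to 206.1 after 5 h and 191 to 234 after 12 h. How far reads of miR-200c-3p were counted as miR-200b-3p was not tested.

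The endothelial marker miR-126-3p had 12.0, 14.5 and 12.5 CPM in the controls, 18.8, 12.5 and 15.1 after 5 h and 12.8, 13.2 and 8.63 after 12 h. The groups overlapped, with a CV of 20.4%, and between 5 h and 0 h the fold was 1.19 (95% interval 0.713 to 1.98; log2 change 0.25, edgeR adjusted p = 0.996). Without replicate 1 of 5 h, the highest library, that log2 change was 0.05. Its opposite arm miR-126-5p was as abundant, at 13.2 ± 3.22 CPM in the controls, 12.97 ± 5.175 after 5 h and 13.9 ± 4.599 after 12 h (SD, n = 3).

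The share of the 3p arm among both arms of miR-126 ran from 43.3% to 66.8% over the libraries. It was highest in replicate 1 of 5 h (66.8%, 95% exact binomial interval 61.1 to 72.1) and 55.7%, 50.3% and 44.3% in the controls, and no time stood apart from the others. No other member came with both arms at like levels. The opposite arms of miR-122, miR-200b, miR-200c, miR-203a and miR-143 had 0 counts in all 9 libraries, which for miR-200c-5p allows up to 0.0271% of the 3p count. miR-141-5p had 27 counts (0.428% of both arms), miR-486-3p 16 (6.78%) and miR-145-3p 3 (1.27%).

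Of the smooth muscle pair, miR-143-3p had 6.62, 6.73 and 1.07 CPM in the controls, 8.87, 11.2 and 7.39 after 5 h and 3.44, 5.15 and 12.9 after 12 h. All 3 libraries at 5 h lay above the controls, while the values at 12 h spanned 3.44 to 12.9 CPM. The fold at 5 h was 1.88 (95% interval 0.736 to 4.78; log2 change 0.91, SE 0.64, n = 3, edgeR adjusted p = 0.996). Without replicate 3 of 0 h, which held 7 counts, the log2 change was 0.45.

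miR-145-5p, from the same transcript, had counts of 0, 8 and 0 in the controls, 20, 0 and 188 after 5 h and 17, 0 and 0 after 12 h. In CPM, replicate 3 of 5 h stood at 11.0 and the next highest library at 1.87. That library held 74.6% of the summed level of miR-145-5p, and 5 of the 9 libraries had 0 counts. The fitted log2 change at 5 h was 4.27 (SE 2.19, 95% interval -0.32 to 8.87, n = 3, edgeR adjusted p = 0.704), or 2.05 without replicate 3 of 5 h and 8.66 without replicate 2 of 0 h, where the remaining controls held 0 counts and the value depends on the prior count. miR-143-3p was not raised in the library that was high for miR-145-5p, at 7.39 CPM against 8.87 and 11.2 in the other 5 h replicates.

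The liver marker miR-122-5p was the least even of the markers above 10 CPM. Its counts were 0, 27 and 14 in the controls, 22, 2 and 1139 after 5 h and 118, 107 and 38 after 12 h. The levels were 0, 2.06 and 2.13 CPM in the controls, 2.05, 0.205 and 66.8 after 5 h and 8.81, 9.03 and 5.96 after 12 h. Replicate 3 of 5 h was 7.40 times as high as the next library and held 68.8% of the summed level, while the other 5 h libraries, at 2.05 and 0.205 CPM, lay within the control range. The 3 libraries at 12 h were close to each other and all above the controls.

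The 5 h mean of miR-122-5p, 23.0 ± 37.9 CPM against 1.40 ± 1.21 at 0 h (SD, n = 3), rested on that 1 library, and without it the mean of the other 5 h libraries was 1.13 CPM. The fitted log2 change was 4.10 (SE 1.31, n = 3, edgeR adjusted p = 0.253). Leaving out replicate 3 of 5 h turned it to -0.31. At 12 h the mean was 7.94 ± 1.71 CPM, a fold of 5.92 over 0 h (95% interval 0.950 to 36.9; log2 change 2.57, SE 1.26, edgeR adjusted p = 0.691). Leaving replicate 3 of 5 h out of the fit gave a log2 change of 2.49 (adjusted p = 0.752). With no filter on low counts miR-122-5p passed at 5 h (edgeR adjusted p = 4.06e-12) and at 12 h (9.62e-05). It also passed at 5 h without replicate 1 (0.0255) or replicate 2 of 5 h (0.00173), so the call at 5 h changed with the choice of libraries and the filter.

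**Figure D3:**
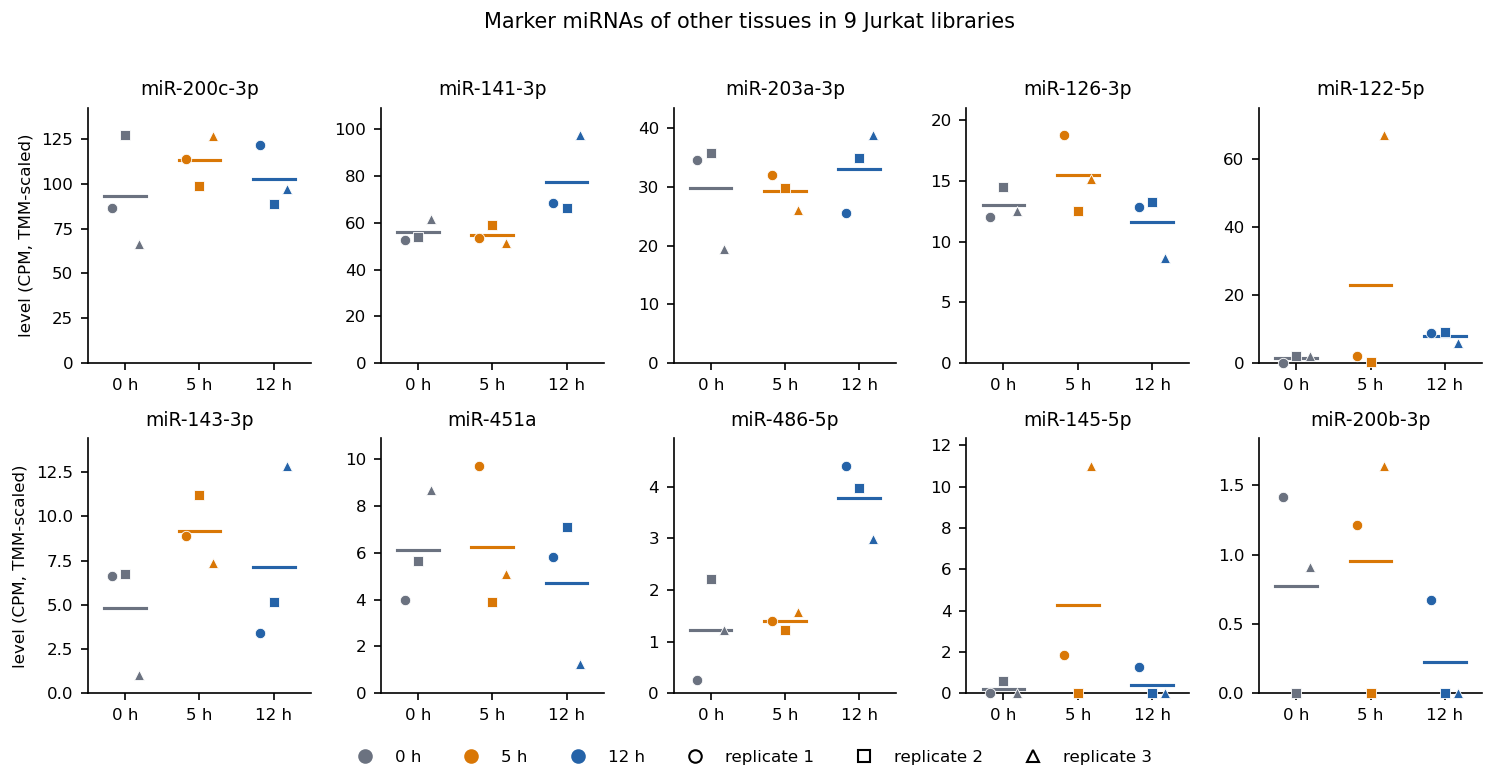
Level of each marker in the 9 libraries (CPM from 0 on a linear axis of its own in each panel, points for replicates, lines for group means). miR-122-5p and miR-145-5p are high in replicate 3 of 5 h, at 66.8 and 11.0 CPM, while miR-141-3p, miR-486-5p and miR-122-5p have 12 h values that all lie above the controls.

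Dominance by 1 library was then counted over all mature miRNAs, as a description, with a measure chosen after the values of miR-122-5p were seen. Of 626 tested mature miRNAs, 2 had a highest library at least 5 times the next with a mean of at least 1 CPM: miR-122-5p and miR-145-5p, both in replicate 3 of 5 h. miR-145-5p reached that mean only through this library (0.468 CPM without it). At ratios of 4 and 3 the number was 4 and 8, and those added were highest in libraries at 12 h. Over all 1098 mature miRNAs with counts and at least 5 CPM in the highest library, a ratio of 5 was reached by 3, and the third was miR-199a-5p, a miRNA of mesenchymal cells, with 95 counts in replicate 3 of 5 h (5.57 CPM), 9 in replicate 1 of 12 h and 0 in the other 7 libraries. The other arm of that hairpin, miR-199a-3p, did not peak there: it was at 2.76 CPM in replicate 3 of 5 h and at 5.48 CPM in its highest library, replicate 3 of 0 h. miR-199b-3p had the same mean (2.79 CPM), CV (58.9%) and highest value, so these reads cannot be assigned to the miR-199a hairpin alone.

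**Figure D4:**
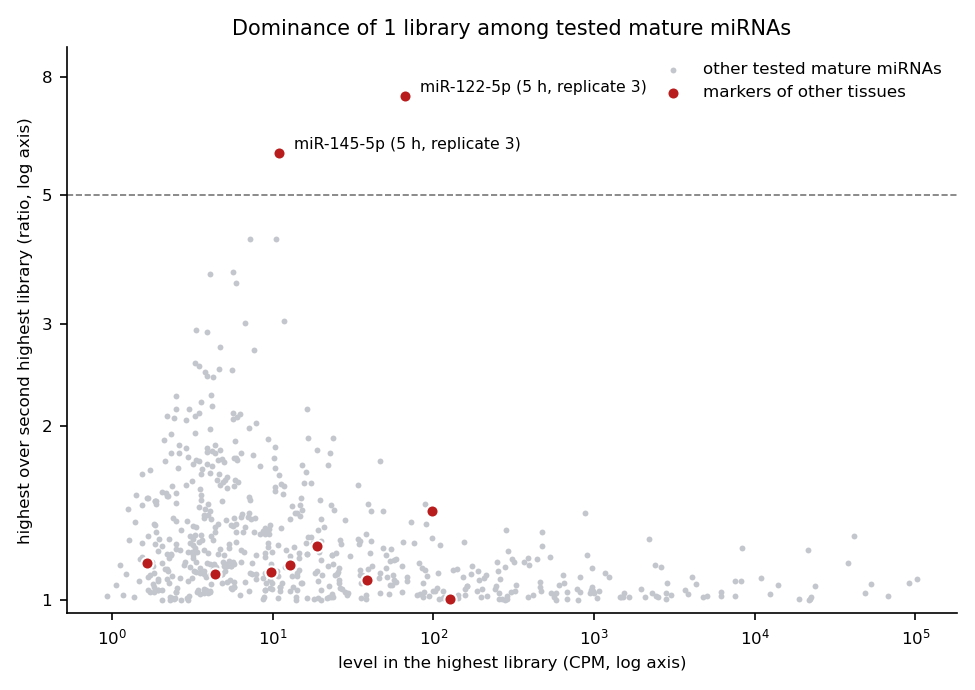
Ratio of the highest to the second highest library against the level in the highest library for 626 tested mature miRNAs (both axes log, dashed line at a ratio of 5). Only miR-122-5p (7.40) and miR-145-5p (5.91) lie above the line, and both peak in replicate 3 of 5 h.

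Most other markers did not peak in that library. Of the 10, 3 had their highest value there: miR-122-5p and miR-145-5p, already seen to be high there, and miR-200b-3p (1.64 CPM). Of all 626 tested mature miRNAs, 45 (7.19%) did. miR-200c-3p was at 126.5 CPM there against a highest value of 127 CPM, and miR-141-3p had its lowest value there. The marker lists were also summed, each given here for that library and for the other 8. The red cell sum was 6.69 CPM against 4.24 to 11.1 CPM, and the epithelial sum 206.1 CPM against 149 to 234 CPM. The endothelial sum, of both arms of miR-126, was highest there at 34.03 CPM against 17.3 to 29.7 CPM. The list of 4 fibroblast and smooth muscle markers (miR-143-3p, miR-145-5p, miR-199a-3p and miR-214-3p, all with counts) summed to 23.7 CPM there against 6.55 to 14.1 CPM in the other 8. Without miR-145-5p, already seen to be high there, the other 3 summed to 12.7 CPM in that library. Replicate 3 of 12 h had 12.9 CPM and replicate 2 of 5 h 12.6 CPM. Of these 3, miR-214-3p was highest in that library (43 counts, 2.52 CPM). It had counts in 2 libraries, the other being replicate 1 of 0 h (33 counts). miR-143-3p and miR-199a-3p had their highest values in replicate 3 of 12 h and replicate 3 of 0 h. By time the sum of all 4 was 6.55 to 11.1 CPM in the controls, 12.6 to 23.7 after 5 h and 7.68 to 12.9 after 12 h. miR-192-5p, which is abundant in liver and gut, was at 6.63 CPM in that library and between 0 and 12.2 CPM in the others. The part that RNA of other cells has in the levels of miR-122-5p and miR-145-5p was not tested.

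Of the red cell markers, miR-486-5p had 0.257, 2.22 and 1.22 CPM in the controls, 1.40, 1.23 and 1.58 after 5 h and 4.41, 3.97 and 2.98 after 12 h. All 3 libraries at 12 h lay above the other 6, on counts of 59, 47 and 19. The fold was 3.07 over 0 h (95% interval 0.572 to 16.4; log2 change 1.62, SE 1.15, n = 3, edgeR adjusted p = 0.885). It was 2.68 over 5 h (interval 0.507 to 14.2; edgeR adjusted p = 1), and neither difference passed. The log2 change over 0 h was 1.119 without replicate 1 of 0 h, which held 4 counts, and 2.32 without replicate 2, which held 29.

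miR-451a had 3.99, 5.66 and 8.68 CPM in the controls, 9.71, 3.90 and 5.10 after 5 h and 5.83, 7.09 and 1.26 after 12 h. The groups overlapped, and the lowest value, 8 counts, came from the shallowest library. Between 12 h and 0 h the fold was 0.784 (95% interval 0.301 to 2.04; log2 change -0.35, edgeR adjusted p = 0.986), and the log2 change was 0.045 without replicate 3 of 12 h and 0.41 without the 2 shallowest libraries. Its cluster partner miR-144-3p, which red cells make from the same transcript, had 2 counts over all libraries, and miR-144-5p and miR-451b had 0. The 4 red cell markers together, with miR-144-5p at 0, summed to 4.24 to 9.90 CPM in the controls, 5.34 to 11.1 after 5 h and 4.24 to 11.1 after 12 h.

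The next question was how many markers changed with activation. In the edgeR fit over all 701 tested rows, 0 of the 10 markers passed at 5 h against 0 h, where 1.57% of the rows passed. At 12 h against 0 h 0 passed (1.43% of the rows), at 12 h against 5 h 0 (0.571%), and over all 3 times tested jointly 0 (1.71%). At an unadjusted p under 0.05 edgeR gave miR-122-5p at 5 h (1 of 10, against 5.99% of the rows) and miR-141-3p in both 12 h comparisons (1 of 10 each, against 7.28% and 6.13%). The joint test gave 2, these same miRNAs, against 5.28%. DESeq2 and limma-voom called 0 markers after adjustment in each comparison. With no filter on low counts edgeR called 1 marker, miR-122-5p, at 5 h, at 12 h and in the joint test, and it called the same 1 at 5 h without replicate 1 or 2 of 5 h and in the joint test without replicate 2 of 5 h. For miR-122-5p DESeq2 gave no p at 5 h or 12 h. A count of 0 does not show that the levels were alike: the interval at 5 h reached a 1.67-fold rise for miR-200c-3p, the most abundant marker.

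Groups that did not overlap were counted as well. At 5 h against 0 h this held for 1 of the 10 markers, miR-143-3p, which was higher at 5 h, against 10.8% of all tested rows in either direction and 6.85% higher. At 12 h against 0 h it held for 3, miR-122-5p, miR-141-3p and miR-486-5p, all higher at 12 h, against 12.1% of the rows in either direction and 7.13% higher. At 12 h against 5 h it held for 2, miR-141-3p and miR-486-5p, both higher at 12 h, against 12.8% in either direction and 4.99% higher. The 12 h libraries enter both of the last comparisons and the control libraries the first 2, so these counts share samples. The median log2 change of the 10 markers was 0.26 at 5 h and 0.30 at 12 h against 0 h, where that of all tested rows was 0.03 and 0.01. At 12 h against 5 h it was -0.38, against -0.03 for all tested rows.

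Markers of 1 tissue or transcript showed no close likeness in pattern over the libraries. Pearson's r of log2 CPM over the 9 libraries was -0.20 for miR-200c-3p with its cluster partner miR-141-3p and 0.11 for miR-143-3p with miR-145-5p, and -0.04 for miR-451a with miR-486-5p. The last 2 values are limited by low counts: miR-145-5p was counted in 4 of the 9 libraries, and miR-486-5p had 220 counts in all. Among 244 other mature miRNAs with at least 10 CPM, the pattern most like that of miR-200c-3p was miR-92a-3p (r = 0.918, and 0.816 without replicate 3 of 0 h), and that most like miR-141-3p was miR-320b (0.896, and 0.553 without replicate 3 of 12 h). For miR-203a-3p it was miR-197-3p (0.855, and 0.605 without replicate 3 of 0 h), for miR-126-3p miR-331-3p (0.885, and 0.747 without replicate 3 of 12 h) and for miR-122-5p miR-152-3p (0.779, and 0.781 without replicate 3 of 5 h). These are descriptions over 9 libraries that share their depth and scaling with every miRNA compared, and for the first 4 leaving out 1 of the 2 shallowest libraries lowered r by more than 0.1.

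Other tissue markers, from a list chosen with the design, were counted about as often as mature miRNAs at large. Of 20 such miRNAs found by name, 9 had any count, against 1098 of all 2654 mature miRNAs. The other 11 had 0 counts in all 9 libraries. Among these were miR-1-3p, miR-133a-3p and miR-206 of muscle, miR-124-3p of neurons and miR-205-5p of epithelium. None of the 20 was counted in every library and none averaged 10 CPM. The 3 highest were miR-192-5p at 6.25 CPM, miR-199a-3p of mesenchymal cells at 2.79 CPM and miR-194-5p at 2.14 CPM, each with 0 counts in 1 library. Of the 10 main markers, 7 were counted in every library and 5 averaged at least 10 CPM, or 4 without replicate 3 of 5 h, where miR-122-5p drops out. Both lists were chosen with earlier results of these data known, so this contrast is a description and not a test.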

How the data were processed

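Per the labels' protocols, RNA from a Direct-zol column kit went into RealSeq libraries. The authors deposited raw counts per precursor and mature miRNA (2883 rows) and a second table of log2 values for 430 rows, those above 0 in all 9 libraries. The submitters' processing notes name GRCh38.p13 and DESeq2. Neither aligner nor counter is given in the sources used here. A mature miRNA with several precursors was taken from its row of highest total, and reads shared between rows cannot be divided.

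The deposited counts were scaled by TMM, filtered with filterByExpr (701 rows left, all 10 markers among them) and tested with edgeR 4.0.16 (quasi-likelihood, 1 mean per time, all 9 libraries) in R 4.3.3, with Benjamini-Hochberg adjustment over the 701 rows and a threshold of 0.05. CPM refer to the TMM-scaled total of the 701 rows left by the filter, in which a mature miRNA with several precursors can enter more than once. The procedure was tested on simulated data. Recovery of changes was scored there only for rows about as abundant as miR-200c-3p or more, so not at the level of the other markers. Groups came from the sample titles. The edgeR p-values rest on the spread between replicates within each time, pooled over all 9 libraries and drawn toward the trend of tested rows. The series describes the 3 replicates of each time as biological. DESeq2 1.42.0, limma-voom (limma 3.58.1), limma on the log2 values, other scalings and filters, and fits without single libraries were alternatives. All 10 markers are described, with their opposite arms, cluster partners, references for level and a list of other tissue markers. For markers of at least 10 CPM the most similar pattern was named by Pearson's r of log2 CPM (prior count 2). The markers and lists were chosen with earlier results of these data known. Pairs of replicates differed by more than counting noise (lowest chi-square per degree of freedom 69.0).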

Additional observations from a re-analysis of the deposited data

How the results depend on the processing

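The count of markers passing at 5 h against 0 h was 0, and 1 (miR-122-5p) with no filter, with the replicate block, or without replicate 1 or 2 of 5 h. At 12 h against 0 h it was 1 (miR-122-5p) with no filter or the replicate block, and over the 3 times 1 with no filter, with the block or without replicate 2 of 5 h. Over fits that left out 1 library each these counts ran from 0 to 1. With the replicate block the log2 change of miR-122-5p was 2.94 at 5 h (edgeR adjusted p = 0.00819) and 3.42 at 12 h (4.90e-05). Deviations of libraries with the same number correlated by only -0.0297 to 0.0604 over all tested rows. Noise in rows with few counts could hide a shared effect, so these values do not settle whether the numbers pair the samples. The log2 change of miR-122-5p at 5 h ran from -0.31 to 4.66 when 1 library was left out. That of miR-451a at 12 h ran from -0.79 to 0.045 in such fits, reversed only by leaving out replicate 3 of 12 h, and was 0.41 without the 2 shallowest libraries. For miR-203a-3p at 12 h the range was -0.083 to 0.25, reversed by leaving out replicate 3 of 0 h (-0.083) or of 12 h (-0.01), and the value was -0.23 without the 2 shallowest. The cause was not tested. The summed level of 238 CPM was 227 to 248 CPM when 1 library was left out and 370.7 CPM with 1 row per mature miRNA in the total, which raises every CPM. The number of miRNAs led by 1 library was 8 at a ratio of 3 and 4 at a ratio of 4. Under upper quartile scaling the median of all rows shifted by 0.16 (log2) in both 12 h comparisons. The ratio settings were chosen after seeing the data. Depth limits miR-200b-3p, miR-145-5p and miR-486-5p most, with 78 to 233 counts over 9 libraries.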
